A study of Rattus norvegicus with 24 samples.

Results

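Trem2, Tyrobp, Gpnmb, Clec7a, Igf1, Spp1, Lgals3, Cst7 and Irf8 are genes of the state that microglia enter around damage in mouse brain and spinal cord, and their expression was followed here over time after a compression injury of the rat spinal cord. The 9 genes were chosen by name, and each was read from the probe sets whose only gene symbol on the platform is that gene. All 9 genes were found, on 12 probe sets, among 14218 genes with a probe set of their own. Where a gene had several probe sets, the one with the highest mean over the arrays stands for it.

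The study sampled female Wistar rats, cut out 5 mm of spinal cord that held the epicenter, and hybridized the RNA of each rat to an Affymetrix rat array of its own, 24 in all. Injured rats had a laminectomy and a modified aneurysm clip of 35 g closed on the cord at T7 for 1 min, and 4 rats were killed at each of 1, 3, 7, 14 and 56 days. The 4 sham rats had the laminectomy and no clip. No strain separates the groups, and neither the age of the rats nor the time of sham sampling is stated in the sources used here. After the operation the animals were given the antibiotic Clavamox for 7 days, with analgesia and saline. Rats killed on days 1 and 3 were therefore within that course, and those of days 14 and 56 were past it. The part of these agents was not tested. Each day holds other animals, so no rat was followed over time, and all 5 days are set against the same 4 sham arrays although the methods speak of 4 sham animals per time. The deposited values are log2 expression values, and the methods state that each set of animals was pre-processed separately. An effect of that separate processing cannot be told apart from the time in any comparison. A further doubt touches every value of days 1 and 3. The arrays labelled day 3 had more summed neutrophil signal than those labelled day 1, mostly from the brightest genes of that list. They also had fewer lowered neuronal genes and lower fibroblast signal, as given with the other cell types. Whether these 2 sets of arrays carry each other's label could not be checked. The labels are used as they stand, so day 1 and day 3 mean the arrays so labelled. With the labels exchanged, the lower levels reported for day 3 would belong to day 1, and the fall between these days and the rise to day 7 would not be a dip within the course. The sample is whole tissue: more cells of a type and more RNA per cell cannot be told apart in it.

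Microglia and macrophages sense lipids, apoptotic cells and fungal glucans through receptors that share a signalling route. The receptor TREM2 has no signalling tail of its own and passes its signal through the adaptor TYROBP (DAP12), whose phosphorylated motif recruits the kinase SYK, while the glucan receptor Dectin-1, encoded by Clec7a, recruits SYK directly. In mouse models of neurodegeneration and demyelination, TREM2 signalling is needed for the full switch to the damage-associated state, in which homeostatic microglial genes fall and genes for phagocytosis, lysosomes and lipid handling rise. These genes are not confined to microglia, since macrophages that enter an injured cord use many of them, and Spp1 and Igf1 are also made by other cells.

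Upstream sequence is shown for 4 members: Trem2 and Igf1, the measurable members whose day 3 mean was below that of sham, and Gpnmb and Clec7a, whose upstream bases hold matches to the motifs searched. Each run is the 250 bases before the start of the gene in RefSeq (build GRCr8), read 5′ to 3′ along the gene's strand, with motif matches in capitals. An entry was found for 7 of the 9 members.
Trem2, chr9:20151780-20152029, minus strand: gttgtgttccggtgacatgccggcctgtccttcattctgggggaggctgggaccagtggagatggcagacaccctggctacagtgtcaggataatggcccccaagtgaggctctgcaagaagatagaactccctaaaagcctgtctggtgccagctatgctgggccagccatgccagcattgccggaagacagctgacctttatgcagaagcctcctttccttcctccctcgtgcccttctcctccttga
Gpnmb, chr4:79340878-79341127, plus strand: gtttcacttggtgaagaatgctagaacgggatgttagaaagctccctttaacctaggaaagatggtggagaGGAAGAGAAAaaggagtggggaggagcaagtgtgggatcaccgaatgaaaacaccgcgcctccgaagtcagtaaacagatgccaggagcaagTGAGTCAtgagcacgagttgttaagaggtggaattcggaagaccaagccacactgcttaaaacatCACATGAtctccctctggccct
Clec7a, chr4:164599828-164600077, minus strand: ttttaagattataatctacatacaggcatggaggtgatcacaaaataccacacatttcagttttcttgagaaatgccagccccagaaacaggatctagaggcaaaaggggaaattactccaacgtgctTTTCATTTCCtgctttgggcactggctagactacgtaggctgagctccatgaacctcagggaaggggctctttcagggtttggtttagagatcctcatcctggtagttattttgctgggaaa
Igf1, chr7:24172282-24172531, plus strand: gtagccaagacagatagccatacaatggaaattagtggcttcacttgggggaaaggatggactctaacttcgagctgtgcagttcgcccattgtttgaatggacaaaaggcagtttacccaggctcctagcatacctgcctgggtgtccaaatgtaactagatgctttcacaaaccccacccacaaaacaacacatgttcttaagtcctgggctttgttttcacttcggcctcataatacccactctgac

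The motifs searched on both strands were GAGGAAGT, bound by the myeloid factor PU.1, the composite of PU.1 and IRF sites, made of GGAA and GAAA with any 2 bases between them, the AP-1 site TGANTCA, the E-box CACGTG and the M-box core TCATGTG, both bound by the MITF family. Upstream of Gpnmb the composite began at −179, the AP-1 site at −87 and the M-box core, read on the opposite strand, at −22, counted from the start of the gene. Upstream of Clec7a the composite, on the opposite strand, began at −122. Over 33360 RefSeq promoters of the same length these letters occurred in 2.48% (composite), 6.35% (AP-1 site) and 3.06% (M-box core), and GAGGAAGT and CACGTG in 2.04% and 5.61%. The M-box core overlaps none of the others in Gpnmb, whereas GAGGAAGT and the composite share the letters GGAA. The other 5 members with an entry, Trem2, Igf1, Spp1, Cst7 and Irf8, held none of these letters in this window. A match is a run of letters, and no binding was measured.

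Of the 9 genes, 8 exceeded their sham level at every time except day 3, when the same genes differed in direction. On day 1, 8 of 9 members were higher and 0 lower (limma, Benjamini-Hochberg adjusted p under 0.05), against 28.9% of all genes higher and 20.4% lower. On day 3, 5 of 9 were higher, against 23.7% of all genes, and 1 was lower, against 16.7%. On days 7, 14 and 56, 8 of 9 were higher and 0 lower each time, against 23.5%, 15.8% and 16.1% of all genes higher and 30%, 16.3% and 15.9% lower. The shares of day 7 depend on the scaling: 21.4% were higher and 18.8% lower with quantile normalization, and 26.1% and 14.3% with median centring. The 8 genes are the same on all 4 of these days, Cst7 being the exception, and on each of these days every injured array lay above every sham array for all 8, which held for 27.6%, 20.2%, 19.7% and 18.6% of all genes on days 1, 7, 14 and 56. On day 3 the 5 higher members lay above all sham arrays, as 23.1% of all genes did, and Igf1 below them, as did 17.3%. The median change of the 9 genes was 3.52 on day 1, 1.26 on day 3, 3.05 on day 7, 2.64 on day 14 and 2.68 on day 56 on the log2 scale, while the median over all genes stayed between −0.05 and 0.03.

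**Figure D1:**
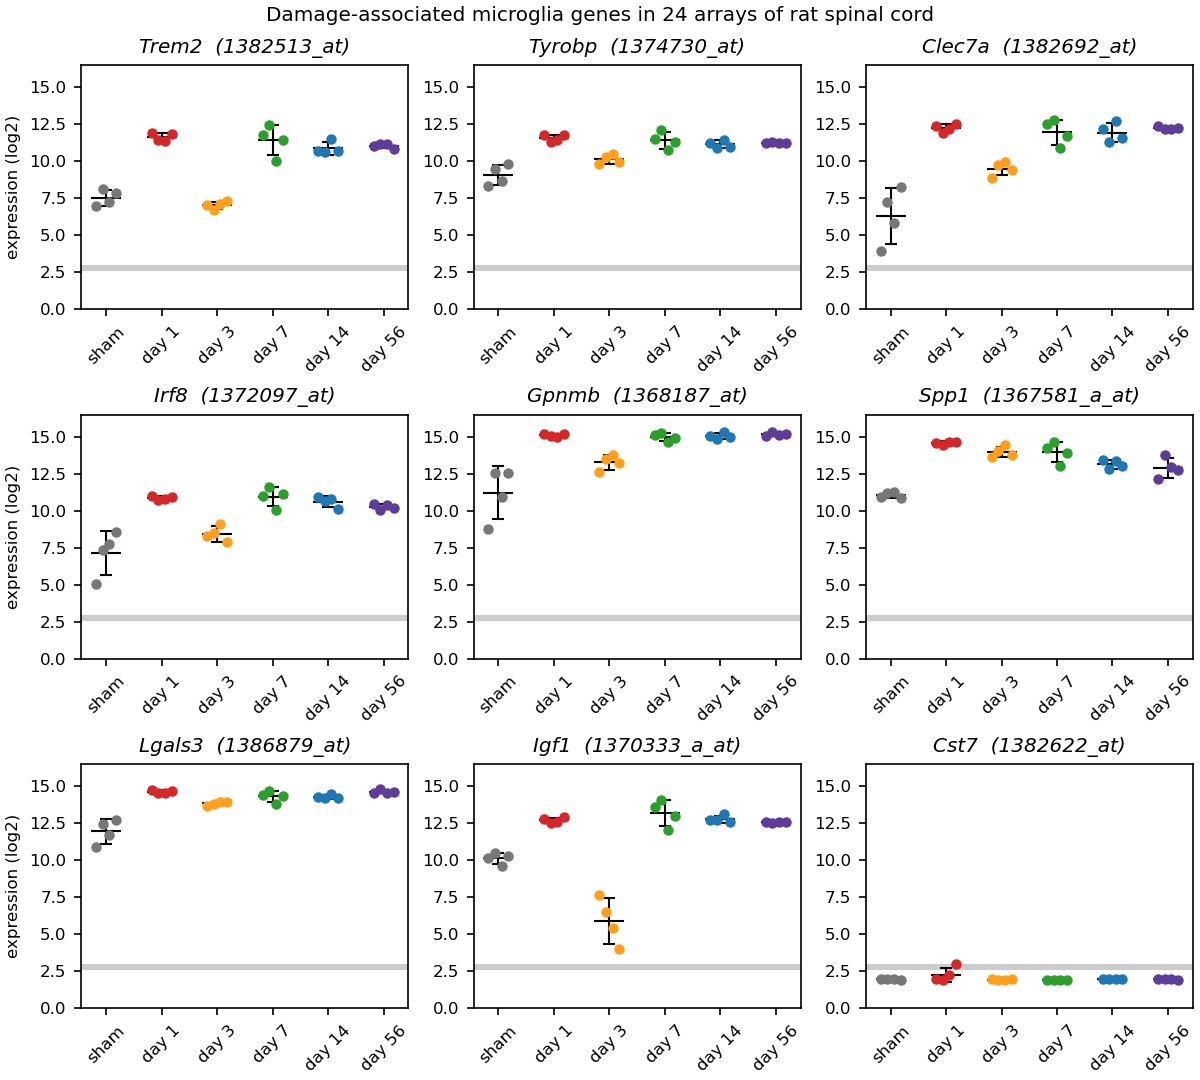
Expression (log2) of the 9 genes in sham rats and on each day after injury, 1 panel per gene, with 1 point per array and the mean ± SD of 4 rats; the grey band is the level of the bacterial control probe sets (2.62 to 2.91). On day 3 the points of Trem2 lie at the sham level and those of Igf1 below it, while Spp1 and Lgals3 stay high.

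Trem2 encodes the lipid receptor itself. Its probe set 1382513_at read 6.98, 8.13, 7.22 and 7.85 in sham cord, 11.94, 11.43, 11.36 and 11.87 on day 1, and 7.02, 6.72, 7.10 and 7.31 on day 3. On day 7 the arrays read 11.76, 12.43, 10.02 and 11.44, on day 14 10.69, 10.65, 11.53 and 10.69, and on day 56 11.05, 11.18, 11.16 and 10.83. Every array of days 1, 7, 14 and 56 was above every sham and every day 3 array, and the day 3 values overlapped those of sham. The log2 change against sham was 4.11 on day 1 (SE 0.36, 17.2-fold, adjusted p = 3.32e-08) and −0.51 on day 3 (adjusted p = 0.244). It was 3.87, 3.34 and 3.51 on days 7, 14 and 56 (largest adjusted p = 1.75e-06). The second Trem2 probe set, 1392759_at, gave larger changes in the same order: 5.34, −0.95, 5.14, 4.63 and 4.77, with an adjusted p of 0.134 on day 3. The means ran from day 1 (11.65) through day 7 (11.41), day 56 (11.06), day 14 (10.89) and sham (7.55) to day 3 (7.04), and of these neighbours only day 14 and sham differed beyond their spread.

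Tyrobp, the adaptor that carries the TREM2 signal, was higher on every day. Sham arrays read 8.30, 9.49, 8.70 and 9.81, day 1 arrays 11.76, 11.28, 11.46 and 11.77, and day 3 arrays 9.83, 10.27, 10.50 and 9.98. On day 7 they read 11.49, 12.09, 10.75 and 11.31, on day 14 11.27, 10.89, 11.46 and 10.95, and on day 56 11.26, 11.28, 11.27 and 11.21. No injured array fell within the sham range, though the lowest on day 3 (9.83) was only just above the highest sham array (9.81). The change was 2.49 on day 1 (SE 0.28, 5.62-fold, adjusted p = 5.67e-07), 1.07 on day 3 (adjusted p = 0.00528, below the fold that the study's threshold asks for), and 2.34, 2.07 and 2.18 on days 7, 14 and 56. On day 3 the adaptor was higher than in sham while its receptor Trem2 was not, although the difference between these changes was not tested. In the order of the means, days 1, 7, 56 and 14 did not differ from their neighbours, day 14 was above day 3 by 1.00 (adjusted p = 0.00861), and sham was lowest.

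Clec7a, the Dectin-1 gene, showed the largest change against sham among the 9 genes on every day except day 3, when that of Igf1 was larger in size. It read 3.92, 7.26, 5.83 and 8.24 in sham cord, 12.38, 11.89, 12.18 and 12.52 on day 1, and 8.89, 9.77, 9.93 and 9.42 on day 3. The arrays of day 7 read 12.50, 12.79, 10.88 and 11.70, those of day 14 12.20, 11.30, 12.71 and 11.57, and those of day 56 12.41, 12.21, 12.16 and 12.23. All injured arrays lay above all sham arrays, and all day 3 arrays lay below those of the other days. The change was 5.93 on day 1 (SE 0.62, 61.0-fold, adjusted p = 2.42e-07), 3.19 on day 3 (9.12-fold, adjusted p = 0.000421), and 5.65, 5.63 and 5.94 on days 7, 14 and 56. The spread of the sham arrays (SD 1.88) was the widest of the 9 genes in that group, so the size of these changes is known less well than that of the others. Days 56, 1, 7 and 14 could not be ordered, day 14 was above day 3 by 2.44 (adjusted p = 0.00467), and sham was lowest.

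Gpnmb encodes a transmembrane glycoprotein of lysosome-rich phagocytes. The sham arrays read 8.80, 12.57, 10.91 and 12.57, the day 1 arrays 15.19, 15.07, 15.02 and 15.20, and the day 3 arrays 12.62, 13.51, 13.75 and 13.24. On day 7 they read 15.16, 15.28, 14.65 and 14.95, on day 14 15.05, 14.86, 15.33 and 14.96, and on day 56 15.08, 15.31, 15.13 and 15.22. Injured and sham arrays did not overlap on any day, but the lowest day 3 array and the highest sham arrays were 12.62 and 12.57. The change was 3.90 on day 1 (SE 0.53, 15.0-fold, adjusted p = 4.6e-06), 2.06 on day 3 (adjusted p = 0.00432, and 0.108 in a fit of sham and day 3 alone), and 3.79, 3.84 and 3.97 on days 7, 14 and 56. With these values near the top of the scale, the means of days 56, 1, 14 and 7 (15.19, 15.12, 15.05 and 15.01) lay within 1 unit of each other and did not differ between neighbours. Day 3 was lower than day 7 and above sham.

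Igf1, which encodes the growth factor IGF-1, was the only member called lower than sham at any time. Its probe set 1370333_a_at read 10.13, 10.52, 9.64 and 10.30 in sham cord, 12.81, 12.53, 12.60 and 12.91 on day 1, and 7.66, 6.49, 5.42 and 3.98 on day 3. The day 7 arrays read 13.61, 14.10, 12.07 and 12.997, those of day 14 12.71, 12.71, 13.12 and 12.60, and those of day 56 12.61, 12.54, 12.61 and 12.56. Each day 3 array was below each sham array, and each array of the other days was above all of them. The change was 2.56 on day 1 (SE 0.52, 5.92-fold, adjusted p = 0.000361), and on day 3 Igf1 fell by 4.26 on the log2 scale (19.2-fold lower, adjusted p = 2.45e-06). On days 7, 14 and 56 it was 3.05, 2.64 and 2.43 above sham (largest adjusted p = 0.00126). Both other Igf1 probe sets moved in the same way, with day 3 changes of −4.40 (1382599_at) and −4.49 (1388469_at) and changes between 1.70 and 3.20 on the other days. On day 3, 1382599_at ranged over 4.22 to 5.38 and 1388469_at over 3.01 to 5.54, the low end of which is near the control level of 2.62 to 2.91, where a fold change has no exact size. Days 7, 14, 1 and 56 did not differ between neighbours, all were above sham, and day 3 was lowest.

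Spp1, the gene of the secreted matrix protein osteopontin, followed a course of its own, highest on day 1 and lower with time. Sham arrays read 10.95, 11.19, 11.29 and 10.89, day 1 arrays 14.62, 14.44, 14.68 and 14.66, and day 3 arrays 13.64, 14.03, 14.44 and 13.80. On day 7 they read 14.25, 14.69, 13.04 and 13.92, on day 14 13.43, 12.81, 13.38 and 13.02, and on day 56 12.13, 13.75, 12.93 and 12.78. All injured arrays were above all sham arrays, and the levels lay lower at each later time by their means. The change against sham was 3.52 on day 1 (SE 0.31, 11.5-fold, adjusted p = 2.73e-08), then 2.90, 2.89 and 2.08, and 1.82 on day 56 (3.52-fold, adjusted p = 0.000143). No step between neighbouring times passed the test (adjusted p = 0.113, 0.997, 0.0518 and 0.726 in order of time), although the first did in a fit of days 3 and 1 alone (−0.62, adjusted p = 0.0362), but day 14 was below day 1 by −1.44 (adjusted p = 0.00169) and day 56 was below day 1 by −1.70 (adjusted p = 0.000305).

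Lgals3, the gene of galectin-3, a secreted lectin of phagocytes, had the smallest difference between day 3 and day 1 among the members called there. It read 10.88, 12.48, 11.73 and 12.76 in sham cord, 14.74, 14.53, 14.56 and 14.68 on day 1, and 13.70, 13.84, 13.96 and 13.91 on day 3. The day 7 arrays read 14.43, 14.72, 13.79 and 14.37, those of day 14 14.30, 14.24, 14.51 and 14.21, and those of day 56 14.57, 14.80, 14.57 and 14.64. Injured and sham arrays did not overlap on any day. The change was 2.67 on day 1 (SE 0.27, 6.35-fold, adjusted p = 1.45e-07), 1.89 on day 3 (adjusted p = 1.43e-05), and 2.37, 2.35 and 2.68 on days 7, 14 and 56. In the order of the means (days 56, 1, 7, 14, 3 and sham) only day 3 and sham differed as neighbours.

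Irf8, a transcription factor that pairs with PU.1 and is needed for microglia and monocytes to mature, had a day 3 level between sham and the other days. The sham arrays read 5.08, 7.35, 7.76 and 8.54, the day 1 arrays 10.99, 10.76, 10.77 and 10.95, and the day 3 arrays 8.29, 8.50, 9.10 and 7.86. On day 7 they read 10.98, 11.60, 10.08 and 11.14, on day 14 10.92, 10.70, 10.79 and 10.11, and on day 56 10.48, 10.06, 10.39 and 10.20. The day 3 arrays overlapped those of sham and lay below all others. The change was 3.69 on day 1 (SE 0.49, 12.9-fold, adjusted p = 3.72e-06), 1.26 on day 3 (adjusted p = 0.0515), and 3.77, 3.45 and 3.10 on days 7, 14 and 56. The day 3 call is undecided: without sham replicate 3, sham replicate 4 or day 3 replicate 4 the adjusted p was 0.043, 0.00772 and 0.039, and with a filter on dim probe sets 0.035. Over the fits that left out 1 array, the day 3 change ran from 0.55 to 1.71. It was smallest without sham replicate 1, the lowest sham array, so its size rests much on that array. Days 7, 1, 14 and 56 did not differ between neighbours.

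Cst7, the gene of cystatin F, an inhibitor of lysosomal cysteine proteases, gave no usable signal. Its only probe set read between 1.90 and 2.96, below the mean of the bacterial control probe sets of the same array on 23 of the 24 arrays, the exception being day 1 replicate 4. No call was made for it in the fit of all 6 groups. Without day 1 replicate 1 or 2 it was called higher on day 1 than in sham cord, still at values near or below the control level, and its true level in the cord was not measurable with this probe set.

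**Figure D2:**
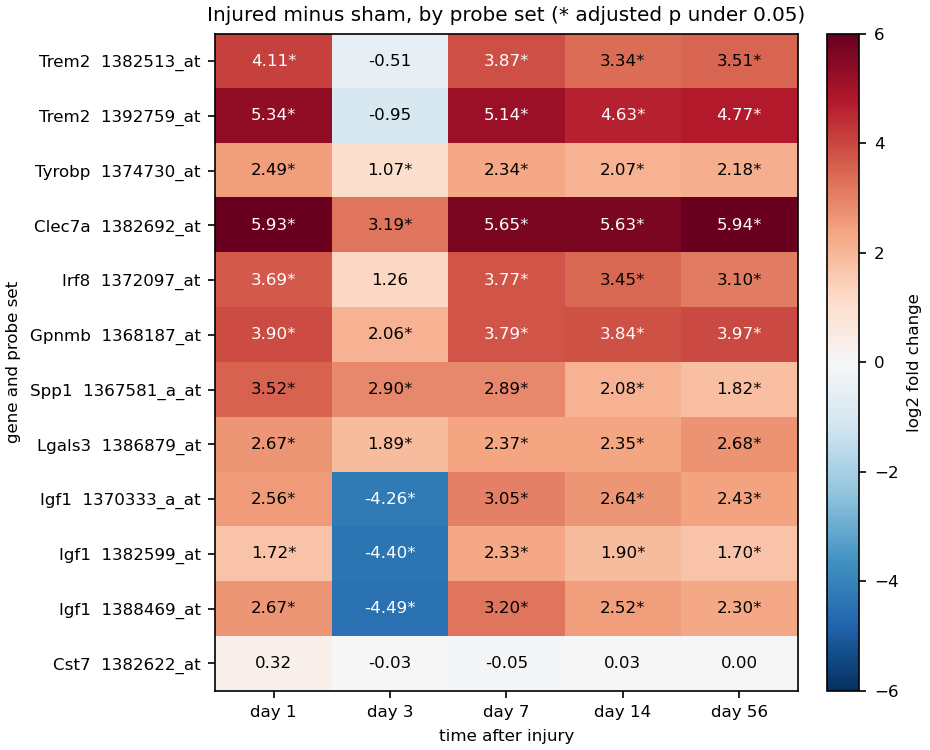
Log2 fold change of injured over sham cord for all 12 probe sets of the 9 genes (rows) on each day after injury (columns), with an asterisk where the adjusted p of the limma fit is under 0.05. The 3 Igf1 probe sets are at −4.26 to −4.49 on day 3, and both Trem2 probe sets carry no asterisk there.

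The comparison of 1 time with another asks where in the course the genes moved, which the shared sham arrays cannot show. From day 1 to day 3, 7 of the 9 members were lower and 0 higher, against 18.3% of all genes lower and 17.1% higher. Igf1 differed by −6.83 (SE 0.52, adjusted p = 2.78e-08), Trem2 by −4.61 (SE 0.36, adjusted p = 3.78e-08) and Clec7a by −2.74. Irf8, Gpnmb, Tyrobp and Lgals3 differed by −2.43, −1.84, −1.42 and −0.77, and for all 7 every day 3 array was below every day 1 array (16.3% of all genes). The smallest of these, that of Lgals3 (adjusted p = 0.0336), was lost in 6 of the 8 fits that left out 1 array of either day, with an adjusted p of up to 0.0759, and kept without day 1 replicate 2 or day 3 replicate 4. Spp1 differed by −0.62 (adjusted p = 0.113, and 0.0362 in a fit of the 2 days alone). All these directions rest on the labels of days 1 and 3.

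Most members were higher again on day 7. Compared with day 3, 6 of 9 were higher on day 7 and 0 lower, against 12.8% of all genes higher and 17.1% lower: Igf1 by 7.31 (SE 0.52, adjusted p = 5.1e-09), Trem2 by 4.37 (SE 0.36, adjusted p = 3.56e-08), Irf8 by 2.51, Clec7a by 2.46, Gpnmb by 1.73 and Tyrobp by 1.27. The arrays of both days did not overlap for any of the 6, and 11% of all genes had all day 7 arrays above all day 3 arrays. The difference of Gpnmb (adjusted p = 0.0193) was lost without day 3 replicate 1 (adjusted p = 0.0646) and with day 7 replicates 2 and 3 and day 14 replicate 3 left out together (adjusted p = 0.0786). Lgals3 (0.47, adjusted p = 0.23) and Spp1 (0.00, adjusted p = 0.997) did not pass. Between day 7 and day 1 none of the 9 was called, with differences from −0.63 to 0.48, against 6.15% of all genes higher and 15% lower (6.39% and 8.63% with median centring). At an unadjusted limma p under 0.05 there was 1, Cst7, which the methods' t-test with Benjamini-Hochberg adjustment also called. Without day 7 replicate 2, Spp1 was lower on day 7 than on day 1 (−0.86, adjusted p = 0.0461).

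After day 7 few differences passed the test. Over the 9 genes they ran from −0.81 to 0.07 between day 14 and day 7 and from −0.34 to 0.33 between day 56 and day 14. None of the 9 was called in the fit of all groups between day 14 and day 7 (21.8% of all genes higher and 6.18% lower) or between day 56 and day 14 (0.19% and 0.148%), and at an unadjusted limma p under 0.05 there were 1 (Spp1) and 0. The shares of day 14 against day 7 were not stable: 1.44% of all genes were higher and 0.443% lower with quantile normalization, 2.4% and 5.42% with median centring, and 0.436% and 1.11% with the 3 arrays left out together, so nothing is read from the members' count beside 21.8%. Those of day 56 against day 14 were 0.204% and 0.267% with quantile normalization. Without day 7 replicate 3, Trem2 (−0.99, adjusted p = 0.0187) and Spp1 (−1.13, adjusted p = 0.0157) were lower on day 14 than on day 7. Between day 56 and day 7 only Spp1 was called, with a difference of −1.08 (SE 0.31, adjusted p = 0.0432, 1.99% of all genes higher and 4.78% lower, 2.18% and 3.13% with quantile normalization, and 1.54% and 8.38% with median centring), and its arrays of both days overlapped. Leaving out day 7 replicate 1, 2 or 4 or day 56 replicate 1, 3 or 4 raised that adjusted p to between 0.0772 and 0.152. Against day 1, Spp1 alone was lower on days 14 and 56, where 19.6% and 21.2% of all genes were lower and 8.3% and 11.1% higher. Against day 3, 6 members were higher and Spp1 lower on day 14 (33.8% and 24% of all genes, 16.9% and 20.1% with quantile normalization, and 12.7% and 25.3% with median centring), and 7 were higher and Spp1 lower on day 56 (13.9% and 22.8%), the seventh being Lgals3. On day 14 all Lgals3 arrays were also above all those of day 3 (0.46, adjusted p = 0.153), and a fit of these 2 days alone called it (adjusted p = 0.00652). The Spp1 call of day 14 against day 3 (−0.82, adjusted p = 0.0293) was lost without day 3 replicate 2 or 3 or day 14 replicate 2 or 4 (adjusted p of up to 0.0992), and the Lgals3 call of day 56 against day 3 (0.79, adjusted p = 0.0284) without day 3 replicate 1 or 2 or day 56 replicate 2 or 4 (up to 0.0701).

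**Figure D3:**
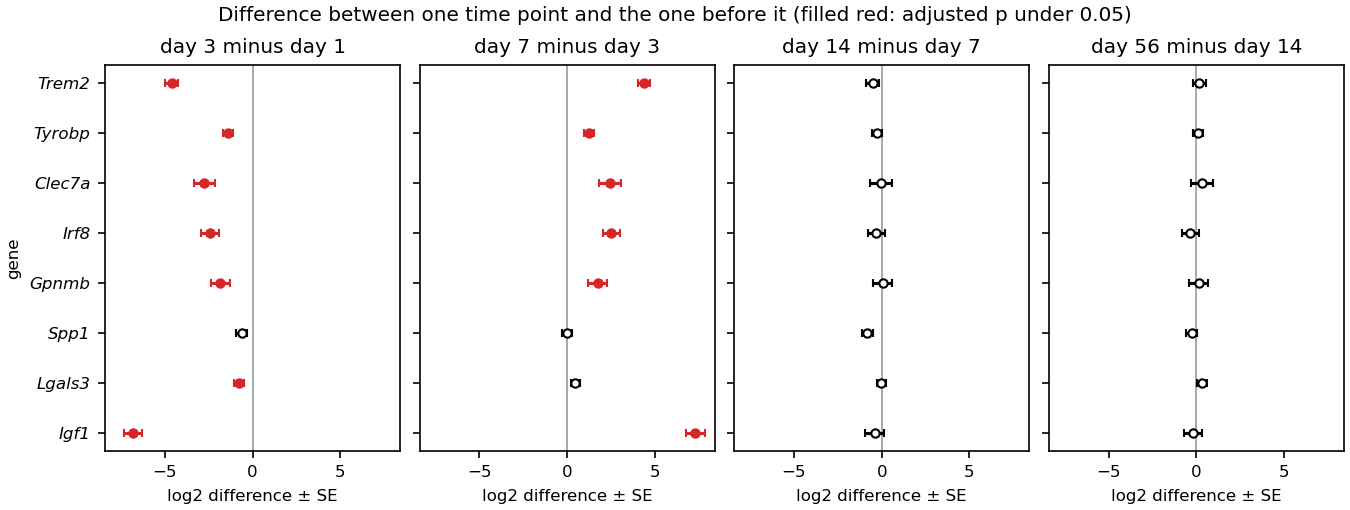
Log2 difference ± SE between each time and the one before it for the 8 measurable genes, with filled red points where the adjusted p is under 0.05. The 7 differences of day 3 minus day 1 run from −6.83 (Igf1) to −0.77 (Lgals3), the 6 of day 7 minus day 3 from 1.27 (Tyrobp) to 7.31 (Igf1), and none is filled later.

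Within a group, the same arrays were high or low for most members. Sham replicate 1 was the lowest of its group for 6 of the 8 measurable genes and sham replicate 4 the highest for 5. On day 7, replicate 3 was the lowest and replicate 2 the highest for all 8, and on day 14 replicate 3 was the highest for 6. The mean of 12 pan-myeloid genes followed the same arrays: 7.79 in sham replicate 1 and 9.52 in sham replicate 4, 11.48 in day 7 replicate 3 and 12.83 in day 7 replicate 2. The mean of 10 neuronal genes was highest of the day 7 arrays in replicate 3 (9.99) and lowest of the day 14 arrays in replicate 3 (6.31). The part of tissue composition in these differences between arrays was not tested.

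**Figure D4:**
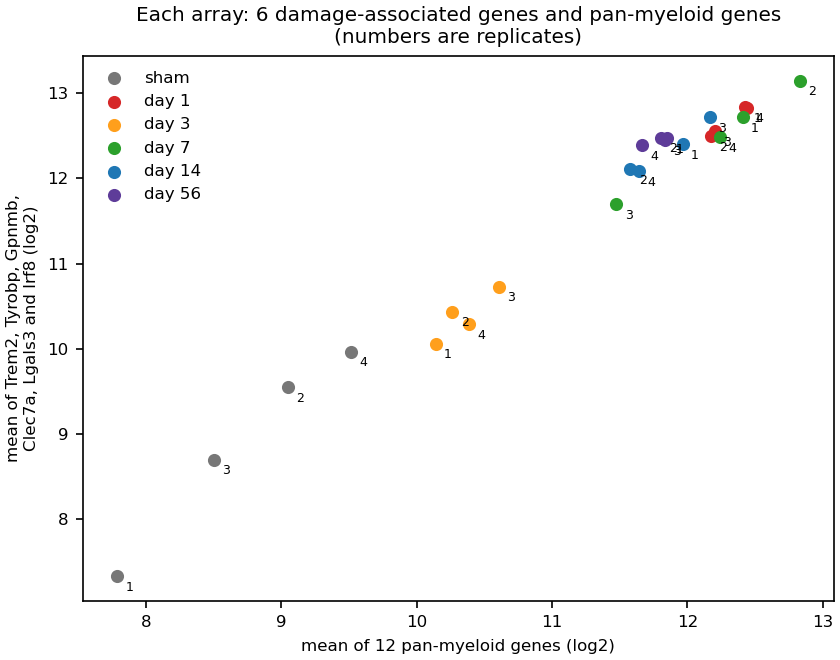
Each of the 24 arrays by the mean log2 value of 12 pan-myeloid genes (horizontal) and of Trem2, Tyrobp, Gpnmb, Clec7a, Lgals3 and Irf8 (vertical), coloured by group and numbered by replicate. Sham arrays spread from 7.33 to 9.96 on the vertical axis, day 3 arrays from 10.1 to 10.7, and all other injured arrays from 11.7 to 13.2. Igf1 and Spp1 are not in this mean, and the gap between sham and day 3 depends on that. With all 8 measurable members, sham replicate 4 (10.12) lay above day 3 replicate 4 (9.94).

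Genes of other cell types moved beside the members. The counts of each list below are to be read beside the shares of all genes given for the same day with the members' counts. A count near its share says nothing of the list. Of 12 pan-myeloid genes, 11 were higher on day 1 and 7 on day 3, when 2 were lower, and 12 were higher on each of days 7, 14 and 56. Their summed signal on the log2 scale ran over 13.6 to 14.6 in sham cord, 16.1 to 16.3 on day 1, 14.3 to 14.6 on day 3, 15.8 to 16.9 on day 7, 15.8 to 16.3 on day 14 and 15.9 to 16.1 on day 56. Fcer1g, another adaptor with the same kind of motif, changed by 2.39, 0.80, 2.36, 1.96 and 2.03. Ctss, the lysosomal protease cathepsin S, was 1 of the 2 that fell on day 3 (−1.12, adjusted p = 1.3e-07). The part of cell number in the members' changes was not tested.

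Homeostatic microglial genes did not fall over the whole course. Of 13 measured, 7 were higher and 3 lower on day 1, and 9 higher and 1 lower on days 7 and 14. On day 56, 7 were higher and 1 lower. On day 3, 2 were higher and 8 lower, with a median of −0.90. P2ry12, the purinergic receptor that marks resting microglia, was 0.53 above sham on day 1 (adjusted p = 0.14), fell by 2.68 on the log2 scale on day 3 (adjusted p = 3.2e-07), and was 1.31 and 0.99 above sham on days 7 and 14. Sall1, a transcription factor of microglial identity, was lower on day 1 (−0.74) and day 3 (−0.99) and near sham later. The summed signal of the list was 11.9 to 12.4 on day 3, 13.9 to 14.6 on the other days and 12.8 to 13.4 in sham cord.

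Genes of monocytes and macrophages that enter the cord were high on day 3 as well. Of 12 measured, 7 were higher on day 1, 8 on day 3, 6 on day 7 and 5 on days 14 and 56, and none was lower. Their summed signal was 10.1 to 10.7 in sham cord, 13.6 to 14.5 on day 1, 13.1 to 13.7 on day 3, 12.4 to 14.3 on day 7, 11.96 to 13.34 on day 14 and 11.9 to 12.5 on day 56. Mrc1, the mannose receptor, was 6.73 above sham on day 1 and 3.81 on day 3. Fn1, the fibronectin gene, was 3.66 and 3.45 above sham on these days. Their part in the members' values was not tested.

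Day 3 cord stood apart in further lists, though for neutrophils in the level of bright genes and not in the count of genes higher. The neutrophil alarmin genes S100a8 and S100a9 were 6.45 and 8.48 above sham on day 3, against 4.23 and 6.84 on day 1, and the siderophore-binding Lcn2 was 9.04 above sham on day 3. Of 10 measured neutrophil genes, 4, 3, 1, 1 and 0 were higher on days 1, 3, 7, 14 and 56, and Mmp9, Camp and Np4 were below the control level on all arrays. The summed neutrophil signal was 6.2 to 6.4 in sham cord, 10.9 to 12.3 on day 1, 13.2 to 13.7 on day 3 and 6.4 to 8.6 later. The mean log2 value over the 10 genes differed less, at 4.86 to 4.96 on day 1 and 5.06 to 5.19 on day 3. The sum rests mostly on the brightest genes of the list. Of 10 neuronal genes, 2 were lower on day 3, against 10 on days 1, 7 and 14 and 9 on day 56. Of 8 fibroblast genes, 5 were lower and 1 higher on day 3, while 5 were higher on days 1, 7 and 14 and 4 on day 56. The summed fibroblast signal was 9.0 to 12.3 on day 3, 13.3 to 16.4 on the other days and 11.8 to 12.7 in sham cord. The part of these cells in the members' day 3 values was not tested.

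**Figure D5:**
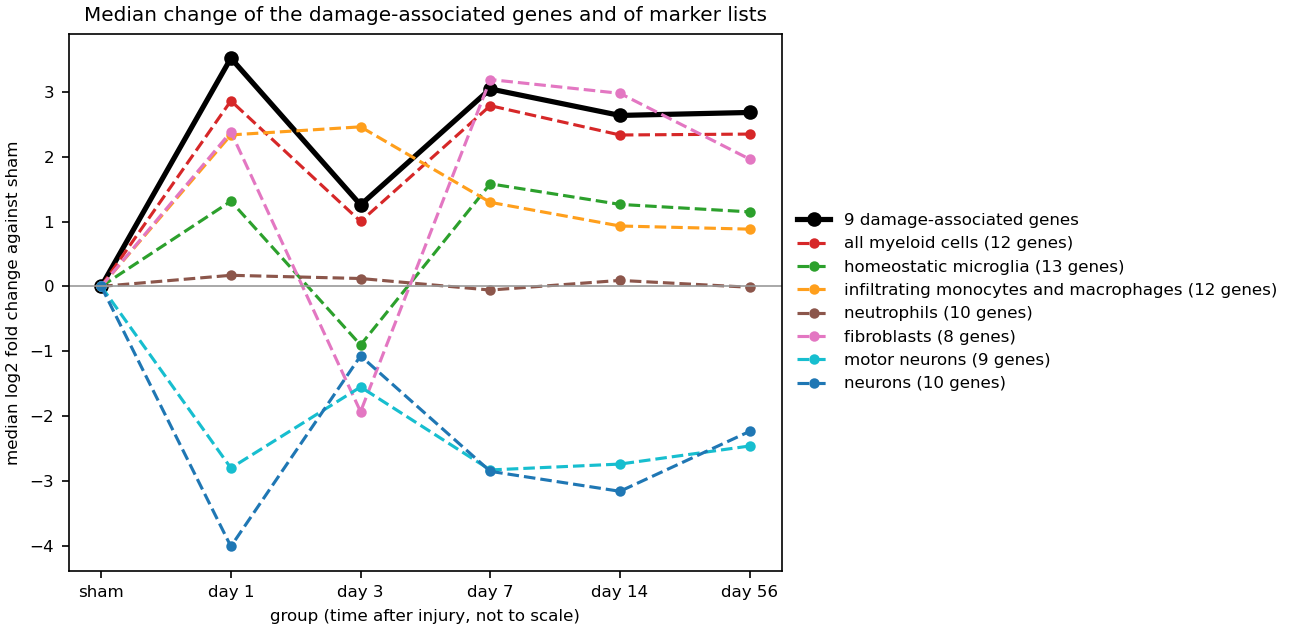
Median log2 fold change against sham (vertical) of the 9 genes and of 7 marker lists at each time (horizontal, not to scale), with sham set at 0. On day 3 the members' median is 1.26 (1.58 without Cst7, not drawn), between that of infiltrating monocytes and macrophages (2.46) and that of homeostatic microglia (−0.90).

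Other known genes of the mouse damage-associated state moved with the members. Of 32 measured, 27 were higher on days 1, 7 and 14 and 26 on day 56, with none lower, and on day 3, 22 were higher and 3 lower. Their medians were 2.16, 1.60, 1.94, 1.70 and 1.87 on days 1, 3, 7, 14 and 56. Cd68, a glycoprotein of phagocyte lysosomes, was 8.996 above sham on day 1, 4.54 on day 3 and 8.75 on day 56. Lilrb4, an inhibitory receptor, was 7.39, 5.94 and 7.02 above sham on these days. Ccl6, a chemokine, was 7.50 above sham on day 1, 6.78 on day 3 and 4.48 on day 56.

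Below the receptors, 11 of 14 genes of the ITAM and Syk route were higher on day 1 and 1 lower, 5 higher on day 3, 8 on days 7 and 14 and 7 on day 56. Vav1, an exchange factor that acts after Syk, was 5.35 above sham on day 1, 2.46 on day 3 and 4.25 on day 56. The kinase Lyn was 4.07, 2.40 and 2.95 above sham on these days, and the phosphatase Ptpn6, which restrains the route, 4.50, 2.43 and 3.06. Fgr, another Src-family kinase, was 3.24 and 2.47 above sham on days 1 and 3, and 1.24, 0.82 and 0.66 on days 7, 14 and 56, where it did not pass.

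Among 9 measured ligands, sheddases and relatives of TREM2, 5 were higher and 1 lower on day 1, 1 higher and 1 lower on day 3, 4 higher and 3 lower on day 7, and 4 higher on days 14 and 56. The second adaptor Hcst (DAP10) was 3.21 above sham on day 1, 0.58 on day 3 (adjusted p = 0.21) and 2.83 on day 7. Plxna1, the plexin that joins TREM2 in a receptor complex in mouse, was 2.33, 0.56 (adjusted p = 0.21) and 2.01. Adam17, a protease that sheds TREM2, was higher on all 5 days (1.77, 1.04, 1.49, 1.24 and 0.86). Clu, the gene of the TREM2 ligand clusterin and an astrocyte product, fell on day 1 (−2.16). Apoa1, Apoa2 and Treml1 were below the control level on all arrays.

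For osteopontin, 5 of 9 receptor genes were higher on day 1, 3 on each later day, with 2 lower on day 3 and 1 on day 7. Cd44, the hyaluronan and osteopontin receptor, was higher on all 5 days (2.76, 2.95, 2.28, 2.17 and 2.08), and the integrin chain Itgb1 likewise (1.47, 1.39, 1.47, 1.17 and 1.03). Itgb5 fell on day 3 (−1.54) and was higher on the other days. Of 7 galectin genes other than Lgals3, 2 were higher on days 1 and 3 and 3 later, and the 3 lower on day 7 (Lgals2, Lgals4 and Lgals7) were below the control level on all arrays. Lgals1 was 2.42 and 0.63 above sham on days 1 and 3, and Lgals3bp, whose product binds galectin-3, 3.56 and 2.01.

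The IGF system held genes that moved in both directions. Of 16 genes, 1 was higher and 2 lower on day 1, 4 lower on day 3, 3 higher and 3 lower on day 7, 2 higher and 1 lower on day 14, and 3 higher and 1 lower on day 56. Over all genes, 28.9% were higher and 20.4% lower on day 1, and 23.7% and 16.7% on day 3. On days 7, 14 and 56 the shares were 23.5%, 15.8% and 16.1% higher and 30%, 16.3% and 15.9% lower. The counts of the list were near or below these shares, those lower on day 3 being furthest above, and nothing is read from any of them. Igf2, the related growth factor made by the meninges, was below sham on day 1 (−4.56) and on day 3 (−4.41), so on day 1 it was low while Igf1 was high. The binding protein genes Igfbp5 (−3.19) and Igfbp6 (−2.78) were lower on day 3. Igf2r, a lysosomal sorting receptor, was 2.29 above sham on day 1.

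Of 10 proteases and inhibitors linked to cystatin F, 6 were higher on days 1, 7, 14 and 56 and 5 on day 3, with 1, 2 and 1 lower on days 1, 3 and 7. Cathepsin C, encoded by Ctsc and a target of cystatin F, was 5.18, 3.58, 4.07, 3.69 and 3.45 above sham on days 1, 3, 7, 14 and 56, while Cst7 itself was not measurable. Ctsl, Ctsb and Lgmn were 2.39, 2.06 and 2.84 above sham on day 1. Among 12 partners and relatives of Irf8, 9, 5, 11, 9 and 8 were higher on the 5 days in order of time and none was lower. Cebpa was 4.02 above sham on day 1 and 1.51 on day 3, Cebpb 3.54 and 3.19, and Irf7, a mediator of interferon responses, 1.13 (adjusted p = 0.13) on day 1 and 4.71 on day 14. Of the 4 MITF-family genes, which drive lysosomal genes and Gpnmb, 4, 3, 2, 3 and 2 were higher on the 5 days, and Tfec had the largest change (4.94 on day 1 and 2.97 on day 3).

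Among themselves and beside other genes, the members fell into several patterns. Over the 24 arrays, ranked among 5316 genes whose group means span at least 1, the genes most like the mean of the 9 members were Grn (Pearson r = 0.986), which encodes the lysosomal protein progranulin, Ifi30, Apobec1, Cd300a and Fcer1g, all at r of 0.983 or more. Without Cst7 in the mean they were Grn (0.993), Cd300a, Fcer1g, Ctsb and Apobec1. Trem2 was most like Blnk (r = 0.986), an adaptor phosphorylated by Syk, and Dpp7. Blnk too was not above sham on day 3 (−0.60). Tyrobp was most like Cd53 and Cyba (both 0.990), Clec7a like Cd68 and Ptprc (both 0.985), Gpnmb like Ptprc and Tifa (0.976 and 0.973), and Irf8 like Tnfaip8l2 and Ptprc (0.976 and 0.970). Igf1 was most like Pltp (0.964), the gene of a phospholipid transfer protein, which was at −2.90 against sham on day 3, and Itgb5 (0.959). Spp1 was most like Rhoc (0.962) and Anxa2 (0.959), which on day 3 were 2.57 and 2.59 above sham, and Lgals3 like Bcl2a1 and Fndc3b (0.979 and 0.976). The nearest genes of Cst7, Lypd8l1 and Osbpl3, follow a single high array and say nothing of expression. The points of each r are the same 24 arrays in 6 groups, so they share the injury and the sham rats, and no p is given. Between pairs of members r ran from 0.084 to 0.985, and the lowest pair of all was Spp1 with Igf1, below every pair with Cst7.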

How the data were processed

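RNA of 24 rat spinal cords was hybridized to Affymetrix arrays, 1 rat to an array. The deposited values are log2 expression values per probe set, which the authors made from the scans with affy 1.12.2 and GCRMA, and no normalization was added. Of 31099 probe sets, 57 are array controls, 20832 carry 1 gene symbol in the platform annotation, 436 several and 9831 none; several-symbol and unnamed probe sets were fitted but not named. For a gene with several probe sets, the brightest over all arrays was used.

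The whole table was fitted with limma 3.58.1 in R 4.3.3 (lmFit, 6 group means, eBayes without trend, 18 residual and 1.08 prior degrees of freedom), and within each of 15 comparisons the two-sided p values of single-symbol probe sets were adjusted by Benjamini-Hochberg (threshold 0.05). The comparisons of days 14 and 56 with days 1 and 3 were added after the values were seen. The fit recovered most known changes when tested on simulated data for day 1 against sham. The simulated noise was independent between genes and arrays, so shifts of whole arrays, as seen in these data, were not tested. Correlations between arrays of a group were 0.973 to 0.996, and no 2 arrays had identical values at over 1% of the probe sets. The array medians were 4.29 to 4.45. The mean of 27 bacterial control probe sets, 2.62 to 2.91, was taken as the level at which the signal of an array no longer separates from background. These 27 were picked for being dim on the same arrays. The number of arrays limits the precision.

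The members, 9 pathway lists (110 of 134 genes measured) and 15 marker lists (132 of 158) were chosen with earlier results of these data known. Named are all members, up to 4 genes of a pathway list with the largest change among those called, up to the 3 brightest of a marker list, and the genes most like the members. Lists not described in the report were those of motor neurons, with 0 higher and 6, 3, 8, 6 and 5 of 9 lower on days 1, 3, 7, 14 and 56, astrocytes (0 higher and 7, 6, 5, 3 and 2 of 8 lower), oligodendrocytes (0 higher and 8, 5, 3, 4 and 6 of 9 lower), Schwann cells (3, 3, 3, 4 and 4 of 6 higher, 1 lower on day 56), endothelial cells (2, 3, 1, 0 and 0 of 9 higher, 2, 3, 2, 0 and 1 lower), dendritic cells (2, 1, 1, 1 and 1 of 4 higher, 1 lower on each day), T and NK cells (1, 0, 2, 2 and 2 of 13 higher, 4 lower on day 7), B and plasma cells (0 of 5 higher, 2 lower on day 7) and osteoclasts (2, 0, 2, 2 and 2 of 5 higher, 2 lower on day 7).

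Alternatives were quantile normalization of all arrays, median centring, a filter on dim probe sets (a group mean of 5), a floor at the control level, only the 2 groups compared, trend and robust moderation (statmod 1.5.0), the methods' t-test, averaging the probe sets of a gene, adjustment over all probe sets, the replicate number as a block, each array left out, and 3 arrays (day 7 replicates 2 and 3, day 14 replicate 3) left out together. Those 3 arrays were the highest or lowest of their group for most members, so leaving them out is no independent check of the members. Tables and figures were made in Python 3.11.15 with numpy 2.4.6, pandas 2.3.3 and matplotlib 3.10.9. Promoters are from RefSeq.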

Additional observations from a re-analysis of the deposited data

Results flagged for a closer look

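One array stood away from the other 3 of its group: Trem2 in day 14 replicate 3, at 11.53 on the log2 scale, the highest of the 4, where the others read 10.69, 10.65 and 10.69. Of the 54 groups of 4 arrays looked at in this way, chance would set apart about 1 in 20. In the same array the pan-myeloid mean was the highest of the day 14 arrays (12.2) and the neuronal mean the lowest (6.31).

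The response to injury differed between neighbouring times for the following members, by the test of the difference itself. Between day 3 and day 1 the log2 differences were −4.61 for Trem2, −1.42 for Tyrobp, −1.84 for Gpnmb, −2.74 for Clec7a, −6.83 for Igf1, −0.77 for Lgals3 and −2.43 for Irf8. Between day 7 and day 3 they were 4.37 for Trem2, 1.27 for Tyrobp, 1.73 for Gpnmb, 2.46 for Clec7a, 7.31 for Igf1 and 2.51 for Irf8. In both comparisons all 4 arrays of one time lay on one side of all 4 of the other for each gene named. Over all genes, 16.3% had all day 3 arrays below all day 1 arrays, and 11% had all day 7 arrays above all day 3 arrays. The calls of Lgals3 between day 3 and day 1 and of Gpnmb between day 7 and day 3 were lost in some fits that left out 1 array. All these directions rest on the labels of days 1 and 3.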

How the results depend on the processing

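The counts of members higher than sham on days 1, 7, 14 and 56 were within 1.5 times of 8 under every alternative run, and on day 3 5 to 6 were higher when single arrays were left out and 4 to 6 under the other alternatives, 4 with only the 2 groups compared (without Gpnmb) and 4 by the methods' t-test at the study's threshold (without Tyrobp). That threshold asks for an unadjusted p of 0.05 or less and a log2 change of at least 1.5. By it, Tyrobp also lost its calls of day 3 against day 1, of day 7 against day 3, and of days 14 and 56 against day 3. Of 440 counts under alternatives other than leaving out 1 array, 28 moved, which means a change of more than 1.5 times or to or from 0. Smaller changes, such as from 5 to 4, are not among them. With a floor at the control level, Cst7, whose probe set lies below that level on 23 of 24 arrays, gave 1 member lower on day 7 than in sham, 1 higher on day 14 than on day 7 and 1 lower on day 7 than on day 1, and 1 (Spp1) was lower on day 14 than on day 7. Of day 14 against day 7, 1 (Cst7) was also higher with only the 2 groups fitted, and 1 lower (Spp1) with trend and robust moderation or adjustment over all probe sets. Of day 7 against day 1, 1 (Cst7) was lower with trend and robust moderation and with the methods' t-test after Benjamini-Hochberg. Of day 56 against day 7, 0 were lower under quantile normalization, only the 2 groups, the methods' t-test by either threshold, adjustment over all probe sets, and the replicate block. Of day 14 against day 1, 2 were lower with only the 2 groups (Spp1, Lgals3) or 3 arrays left out (Spp1, Trem2), and 0 by the methods' t-test at the study's threshold, and of day 56 against day 1, 3 (Spp1, Trem2, Irf8) and 2 (Spp1, Trem2) were lower in these fits. Of day 14 against day 3, 0 were lower under quantile normalization and the methods' t-test at the study's threshold, by which 0 were also lower on day 56 than on day 3. Genes of the pathway lists lower on day 7 numbered 2 with the filter on dim probe sets, 1 with median centring and 3 with quantile normalization, where the fit of the report has 11, and on day 14 they numbered 2 with the filter in place of 1. Marker genes lower on day 7 numbered 26 with median centring, where the fit of the report has 40. Leaving out single arrays, members lower ranged over 0 to 2 for day 14 against day 7, 0 to 1 for day 7 against day 1, day 56 against day 7 and day 14 against day 3, and 1 to 2 for days 14 and 56 against day 1. The counts over all genes moved too, most for day 14 against day 7, with 40 higher after the filter on dim probe sets, where the fit of the report has 3102, and for day 7 against day 1, with 49 higher and 115 lower with only the 2 groups compared, where it has 875 and 2134. Leaving out single arrays, genes lower on day 7 than in sham numbered 2330 without day 7 replicate 1, 2460 and 2697 without sham replicates 1 and 3 (4271 in the fit of the report), and genes higher on day 14 than on day 3 numbered 3164 and 2894 without day 3 replicates 2 and 3 (4805). Differences that changed sign were all small and not called. Day 7 minus day 3 for Spp1 was 0.0074 with median centring and 0.11 with 3 arrays left out, and −0.24 to 0.31 over single arrays. Day 14 minus day 7 was 0.084 for Clec7a and 0.0998 for Lgals3 under quantile normalization, and −0.045 and −0.092 for Gpnmb with median centring and 3 arrays left out, and over single arrays it was −0.38 to 0.25, −0.19 to 0.12 and −0.074 to 0.135 for Clec7a, Lgals3 and Gpnmb. Day 7 minus day 1 over single arrays was −0.58 to 0.23 for Trem2, −0.38 to 0.066 for Tyrobp, −0.20 to 0.0078 for Gpnmb, −0.55 to 0.085 for Clec7a and −0.13 to 0.37 for Irf8. Day 56 minus day 7 was −0.38 to 0.071 for Tyrobp and −0.075 to 0.56 for Clec7a. Day 14 minus day 1 for Igf1 was −0.038 with 3 arrays left out and −0.038 to 0.14 over single arrays. Day 56 minus day 1 was −0.020 for Clec7a and −0.014 for Lgals3 with median centring, and −0.11 to 0.10 and −0.037 to 0.054 over single arrays. The replicate numbers do not pair the rats: in no comparison did more than 2 of the 4 same-numbered pairs of arrays correlate above 0.1. With the replicate number as a block, Spp1 on day 56 against day 7 had an adjusted p of 0.0601, and no other call of the 8 measurable members changed. Where a cause is not given by the setting itself, it was not tested. Sham arrays spread widely for Clec7a, Gpnmb and Irf8, and values near the control level carry no exact size.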
